A study of Mus musculus with 4 samples.

Results

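The genes described here are 10 receptors, bridging proteins and engulfment factors through which macrophages clear apoptotic cells: Mertk, Axl, Timd4, Lrp1, Megf10, Gas6, Pros1, Mfge8, Elmo1 and Dock1. They were taken by gene symbol from a read count table of 21878 genes, and all 10 were found there. Apoptotic cells expose phosphatidylserine on their surface, and a phagocyte binds it either directly or through a soluble bridging protein. The receptors then signal to the actin cytoskeleton, the cell is engulfed in a phagosome and its lipids are sensed and exported. In macrophages this clearance, called efferocytosis, normally proceeds without inflammation.

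The cells were bone marrow-derived macrophages from C57BL/6 mice aged 8 weeks, grown with M-CSF and kept for 48 h (per the labels) across a porous insert from MC38 cells, a mouse colon cancer line. WT macrophages (n = 2 libraries) were compared with macrophages of macrophage-specific Act1 knockdown mice, named anti-Act1 (n = 2 libraries). Act1, encoded by Traf3ip2, is an adaptor of IL-17 receptor signalling. Both groups had MC38 cells in the insert, so no macrophages cultured alone entered the comparison, and the promoter that drives the knockdown was not given in the sources used here. The comparison asks how the transcripts of these genes differed between anti-Act1 and WT macrophages exposed to the tumour cells. The total counts were 64199075 and 75062945 in WT and 61926229 and 55435063 in anti-Act1, so both WT libraries were the deeper ones.

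Several measurements of the libraries bear on how the labels should be read. Traf3ip2 was at 6.98 and 7.54 CPM (read counts scaled to a TMM-normalised library size) in WT and at 9.63 and 7.84 CPM in anti-Act1, a log2 difference of 0.27 (SE 0.12) that did not pass edgeR's quasi-likelihood test (adjusted p = 0.117). The study reported reduced Act1 expression in bone marrow-derived macrophages of anti-Act1 mice, and transcript counts give no measure of protein. What the knockdown construct transcribes, and whether counting used strand, were not given in the sources used here. By these counts the libraries labelled anti-Act1 held no lower level of reads assigned to the targeted gene than WT. Without anti-Act1 replicate 2 its log2 fold change was 0.41 in the direction of more transcript (edgeR, adjusted p = 0.0343). The Y-linked gene Ddx3y was at 88.8 and 97.0 CPM in WT and at 0 in both anti-Act1 libraries, so the sex of the mice and the genotype label cannot be told apart. All 8 macrophage markers (Adgre1, Cd68, Csf1r, Itgam, Lyz2, Fcgr1, Mrc1 and Cd163) were above 1 CPM, with a summed level of 23000 to 23890 CPM in WT and 23450 to 24320 CPM in anti-Act1. Among them Cd163 (log2 fold change −1.51), Mrc1 (−0.63) and Itgam (−0.31) fell, all by edgeR at an adjusted p under 0.05. The 6 tumour epithelium markers summed to at most 0.464 CPM in WT and 0.389 CPM in anti-Act1, and Krt8 and Krt18 were at 0 in all 4 libraries. T cell markers summed to 25.2 to 25.6 CPM in WT and 27.3 to 31.0 CPM in anti-Act1, nearly all from Cd4. Cd4 was the 1 T cell marker above 1 CPM and the 1 tested, and it was called higher. Neutrophil markers summed to 5.74 to 5.79 against 6.19 to 6.96 CPM, with 1 called higher and 1 lower of 3 tested. Dendritic cell markers summed to 4.26 to 5.31 CPM over the 4 libraries, fibroblast markers to at most 0.476 CPM and B cell markers to at most 0.389 CPM. The part of these differences in the results given here was not tested.

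The changes among the 10 genes ran in opposite directions. Axl, a receptor tyrosine kinase for Gas6, fell 2.83-fold from its WT level, and its ligand Gas6 and sister receptor Mertk fell less. Mfge8, the bridge from phosphatidylserine to αv integrins, rose. The promoters of these 4 genes are shown because Axl, Gas6 and Mertk fell together and Mfge8 moved the other way. The windows run from 250 bases before to 50 bases after the start in RefSeq (build GRCm38.p6), on the strand of the gene, 5′ to 3′. Capitals mark GGGCGG, a GC box, and GAGGAA, an ETS core of the kind bound by the macrophage factor PU.1, each on either strand. The coordinates are chr7:25788684-25788983 for Axl, chr8:13494486-13494785 for Gas6 and chr7:79149011-79149310 for Mfge8, all on the minus strand, and chr2:128698665-128698964 for Mertk on the plus strand.
Axl: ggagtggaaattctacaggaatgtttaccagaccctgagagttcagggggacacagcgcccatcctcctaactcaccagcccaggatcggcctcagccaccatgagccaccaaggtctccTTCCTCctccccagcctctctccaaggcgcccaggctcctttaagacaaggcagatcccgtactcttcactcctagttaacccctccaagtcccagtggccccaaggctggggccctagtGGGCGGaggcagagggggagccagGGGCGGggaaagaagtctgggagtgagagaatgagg
Gas6: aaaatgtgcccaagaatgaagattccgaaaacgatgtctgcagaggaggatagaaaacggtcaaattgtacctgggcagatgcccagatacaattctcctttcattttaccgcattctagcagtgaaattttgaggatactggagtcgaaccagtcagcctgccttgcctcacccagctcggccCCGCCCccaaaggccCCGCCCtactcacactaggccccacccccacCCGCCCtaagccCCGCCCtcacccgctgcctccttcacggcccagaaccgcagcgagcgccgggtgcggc
Mertk: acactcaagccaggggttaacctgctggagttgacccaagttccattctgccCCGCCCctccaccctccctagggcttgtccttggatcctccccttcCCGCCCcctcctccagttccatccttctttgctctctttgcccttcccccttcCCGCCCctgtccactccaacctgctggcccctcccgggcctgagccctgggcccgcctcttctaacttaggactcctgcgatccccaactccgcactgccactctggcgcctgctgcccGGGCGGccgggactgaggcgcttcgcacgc
Mfge8: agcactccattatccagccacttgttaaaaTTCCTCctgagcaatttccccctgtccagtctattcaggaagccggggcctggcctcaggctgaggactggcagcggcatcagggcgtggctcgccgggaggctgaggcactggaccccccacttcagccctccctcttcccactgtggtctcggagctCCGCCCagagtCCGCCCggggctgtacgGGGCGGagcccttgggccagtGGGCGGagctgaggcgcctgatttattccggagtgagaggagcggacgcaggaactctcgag

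The GC box occurred 2 times in the Axl window and 4 times each in the Gas6, Mertk and Mfge8 windows, whichever way the gene moved. It was present in 35.7% of the 32851 promoter windows of the same length. GAGGAA was found 1 time in Axl and 1 time in Mfge8, and in 28.3% of all windows. None of the 4 windows held TATAAA (13.6% of all windows), TGANTCA (an AP-1 element, 7.81%), TTCNNNGAA (a STAT element, 8.3%), CACGTG (an E-box, 7.15%) or the kappaB consensus (4.51%), searched on both strands, which says only that these letters were not in these windows. The GC content was 60.3% for Axl, 58.3% for Gas6, 66% for Mertk and 64.3% for Mfge8, above the median of 52.7% over all windows. Promoter windows were found for 9 of the 10 genes. Among the other genes, the GC box count was 5 in Pros1, 3 in Dock1, 1 in Lrp1 and 0 in Timd4, while 1 Elmo1 window held 3 and the other 0.

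In edgeR's test over 12494 genes, 2586 genes (20.7%) were past an adjusted p of 0.05, of which 1366 (10.9%) were higher and 1220 (9.76%) lower in anti-Act1. Of the 10 clearance genes 9 passed the filter on low counts, and 6 of those 9 were past the threshold, 1 higher and 5 lower. The median log2 fold change of the 9 was −0.37, against a median of −0.0046 over all genes tested. The exact permutation test of a single gene cannot go below p = 0.333 with 2 libraries against 2, so every call rests on the spread that edgeR pools across genes.

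**Figure D1:**
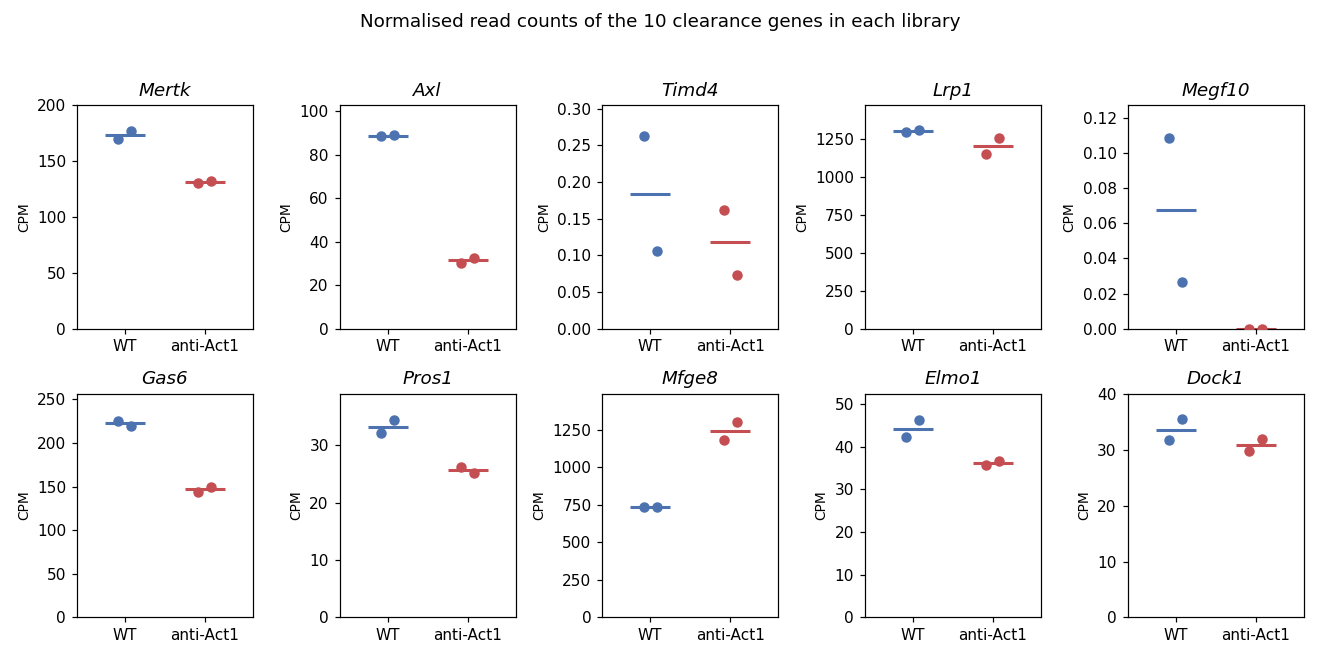
TMM-normalised read counts (CPM, vertical axes from 0, each gene on its own scale) of the 10 clearance genes. Points are the 2 libraries of each group (blue, WT; red, anti-Act1) and bars their mean. Axl lies at 88.6 and 89.0 CPM in WT and at 30.3 and 32.5 CPM in anti-Act1, while Mfge8 is the 1 gene tested whose anti-Act1 libraries both lie above WT.

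Axl and Mertk belong with Tyro3 to the TAM family of receptor tyrosine kinases, which bind phosphatidylserine through Gas6 or protein S. Axl is bound by Gas6, and Mertk by both Gas6 and protein S. Axl was at 88.6 and 89.0 CPM in the WT libraries and at 30.3 and 32.5 CPM in the anti-Act1 libraries. The groups were far apart, with means of 88.8 ± 0.308 and 31.4 ± 1.57 CPM (SD, n = 2 each). Axl fell by 1.50 on the log2 scale (SE 0.06, 95% interval −1.62 to −1.38, adjusted p = 8.39e-25 by edgeR's quasi-likelihood test), so the WT level was 2.83-fold that of anti-Act1. In bulk libraries such as these, fewer cells that express a gene and less RNA per cell cannot be told apart. By size of change Axl stood 15th among the 1173 genes that were called lower with a mean of at least 1 CPM. Among all 1220 genes called lower it stood 45th. The Y-linked Ddx3y was ranked 1 in both orders.

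Mertk, the TAM receptor best known for the clearance of apoptotic cells by macrophages, was at 170 and 177 CPM in WT and at 131 and 133 CPM in anti-Act1. Both anti-Act1 libraries were below both WT libraries, and the means were 173 ± 4.67 and 132 ± 1.45 CPM (SD, n = 2 each). Mertk fell by 0.40 on the log2 scale (SE 0.05, 95% interval −0.50 to −0.29, edgeR adjusted p = 4.09e-08), which means that its level decreased by 24.1%. The intervals of Mertk and Axl did not meet. The ratio of the Axl to the Mertk FPKM (fragments scaled to gene length and library total) was 0.492 and 0.476 in the WT libraries and 0.219 and 0.232 in the anti-Act1 libraries. Within each anti-Act1 library, then, there was less Axl for each unit of Mertk. Tyro3 was close to the detection floor, with 0.186 and 0.0527 CPM in WT and 0.0324 and 0.293 CPM in anti-Act1, and the groups overlapped. A floor of 3 counts corresponded to 0.0395 to 0.0549 CPM across the libraries and covers counting error only.

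The bridging proteins of the TAM receptors were also lower. Gas6, which binds all TAM receptors, was at 225 and 220 CPM in WT and at 144 and 150 CPM in anti-Act1. The groups did not overlap, and Gas6 fell by 0.60 on the log2 scale (SE 0.05, 95% interval −0.70 to −0.49, edgeR adjusted p = 5.18e-13), which means that its level decreased by 33.9%. Pros1 encodes protein S, a plasma anticoagulant that also serves Mertk and Tyro3. It was at 32.1 and 34.3 CPM in WT and at 26.1 and 25.1 CPM in anti-Act1, again without overlap. Pros1 fell by 0.37 (SE 0.07, 95% interval −0.51 to −0.23, edgeR adjusted p = 4.99e-05). The FPKM of Gas6 was 8.56 and 7.80 times that of Pros1 in WT and 6.73 and 7.28 times in anti-Act1, so Gas6 stayed the more abundant of the pair in each library. In the annotation used, exons of Gas6 overlap Tmem255b on the opposite strand, but Tmem255b held at most 6 counts in any library.

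Mfge8 encodes lactadherin, a secreted protein that links phosphatidylserine to the integrins αvβ3 and αvβ5. It was at 735 and 733 CPM in WT and at 1181 and 1301 CPM in anti-Act1. Both anti-Act1 libraries lay far above WT, with means of 1241 ± 84.8 and 734 ± 1.23 CPM (SD, n = 2 each). Mfge8 rose by 0.76 on the log2 scale (SE 0.05, 95% interval 0.65 to 0.86, edgeR adjusted p = 1.92e-16), or 1.69-fold. Its FPKM was 4.09 and 4.18 times that of Gas6 in WT and 10.3 and 10.9 times in anti-Act1, so the balance of these 2 bridges moved towards Mfge8 in each anti-Act1 library. Of the integrin chains that bind Mfge8, Itgb3 rose (10.6 and 11.9 CPM in WT, 14.8 and 15.7 CPM in anti-Act1, 0.44 on the log2 scale, SE 0.10, adjusted p = 0.00039 in edgeR). It lost this call in limma on log2(FPKM + 1) without a filter (0.29, adjusted p = 0.0940). Itgb5 fell (274 and 262 CPM against 216 and 229 CPM, log2 fold change −0.27, edgeR adjusted p = 6.66e-05). The shared chain Itgav was at 98.7 and 113 CPM in WT and 120 and 115 CPM in anti-Act1, with an adjusted p of 0.0639 by edgeR. It passed the threshold without WT replicate 2, at 0.25 on the log2 scale (adjusted p = 0.00098 in edgeR).

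The remaining receptors gave no call. Lrp1, a large scavenger receptor that also takes up cells marked by calreticulin, was at 1298 and 1310 CPM in WT and at 1155 and 1255 CPM in anti-Act1. The groups did not overlap, but the log2 fold change of −0.11 (SE 0.05, 95% interval −0.22 to −0.01) had an adjusted p of 0.108 by edgeR. With library totals in place of TMM it passed, at −0.14 on the log2 scale (adjusted p = 0.0430 in edgeR). Timd4 encodes TIM-4, a phosphatidylserine receptor of resident tissue macrophages, and had only 17 and 8 counts in WT and 10 and 4 counts in anti-Act1. The groups overlapped, and the interval of its log2 fold change, −2.09 to 0.92, was wide enough that no change was detectable at this depth. The value was −0.58 in all 4 libraries and 0.18 without WT replicate 1. Megf10, an engulfment receptor best known from astrocytes, had 7 and 2 counts in WT and 0 in both anti-Act1 libraries, where the floor was 0.0486 and 0.0549 CPM. It did not pass the filter, and no fold is given for it. Havcr1, the related TIM-1 gene, and Gulp1, an adaptor of Megf10, had 0 counts in all 4 libraries.

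Downstream of the receptors, Elmo1 and Dock1 form an exchange factor that activates Rac1 at the forming phagosome. Elmo1 was at 42.2 and 46.3 CPM in WT and at 35.6 and 36.7 CPM in anti-Act1. The groups did not overlap, and Elmo1 fell by 0.29 on the log2 scale (SE 0.07, 95% interval −0.42 to −0.16, edgeR adjusted p = 0.000628), so that its level decreased by 18.3%. The call was lost in limma on log2(FPKM + 1) without a filter, with an adjusted p of 0.0691. Dock1, its partner, was at 31.8 and 35.5 CPM in WT and at 29.9 and 31.9 CPM in anti-Act1. These groups overlapped, and the log2 fold change of −0.13 had a 95% interval of −0.27 to 0.01 and an adjusted p of 0.215 by edgeR. Elmo1 shares exon sequence with an antisense gene, Gm32036, that is not in the count table, and whether the counting used strand was not given in the sources used here. Dock2, the leukocyte member of the Dock family, fell by 0.29 (197 and 209 CPM against 160 and 172 CPM, edgeR adjusted p = 2.74e-05), and so did Rac1 by 0.23 (375 and 351 CPM against 310 and 306 CPM, edgeR adjusted p = 0.00046). Rac1 overlaps Daglb on the opposite strand, which held 6575 to 10631 counts, so reads of the pair may not be separable. Dock2, Itgav, Stab2, Thbs1 and Adam17 also share exon sequence with a gene on the opposite strand. Elmo2 (log2 fold change −0.12, adjusted p = 0.136), Dock5 (−0.08, adjusted p = 0.504) and Crk (0.00, adjusted p = 0.990) did not pass by edgeR.

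**Figure D2:**
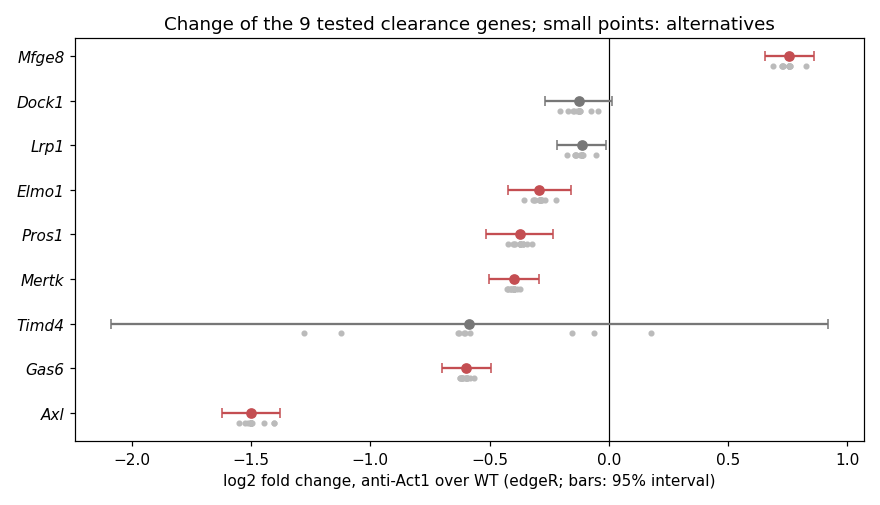
Log2 fold change of anti-Act1 over WT (horizontal axis) for the 9 clearance genes tested, with 95% intervals from edgeR. Red marks an adjusted p under 0.05, and the small grey points are the values under the alternative settings. Axl lies at −1.50 and Mfge8 at 0.76, while Timd4 has an interval from −2.09 to 0.92 and grey points on both sides of 0.

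Per length the 10 genes covered a wide range. In WT the mean FPKM was 358 ± 0.582 for Mfge8, 88.4 for Lrp1, 86.6 for Gas6, 41.4 for Mertk, 20.1 ± 0.136 for Axl, 11.1 for Elmo1, 10.6 for Pros1, 4.93 for Dock1 and 0.135 for Timd4, with Megf10 last (SD, n = 2 where given). The neighbours Lrp1 (87.7 and 89.0 FPKM) and Gas6 (87.4 and 85.7 FPKM) were close to each other, and the libraries of Elmo1 (10.5 and 11.6 FPKM) overlapped those of Pros1 (10.2 and 11.0 FPKM). In anti-Act1 the mean was 594 ± 35.4 FPKM for Mfge8, 80.2 for Lrp1, 56.2 for Gas6, 30.9 for Mertk, 8.90 for Elmo1, 8.04 for Pros1 and 6.96 ± 0.288 for Axl. Axl thus moved from above Elmo1 and Pros1 to below both. The 10 genes together held 0.264% and 0.268% of all counts in WT and 0.273% and 0.292% in anti-Act1. Their summed share was thus slightly higher while 5 of them were called lower. Mfge8 alone held 0.0740% and 0.0742% of all counts in WT and 0.118% and 0.128% in anti-Act1.

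**Figure D3:**
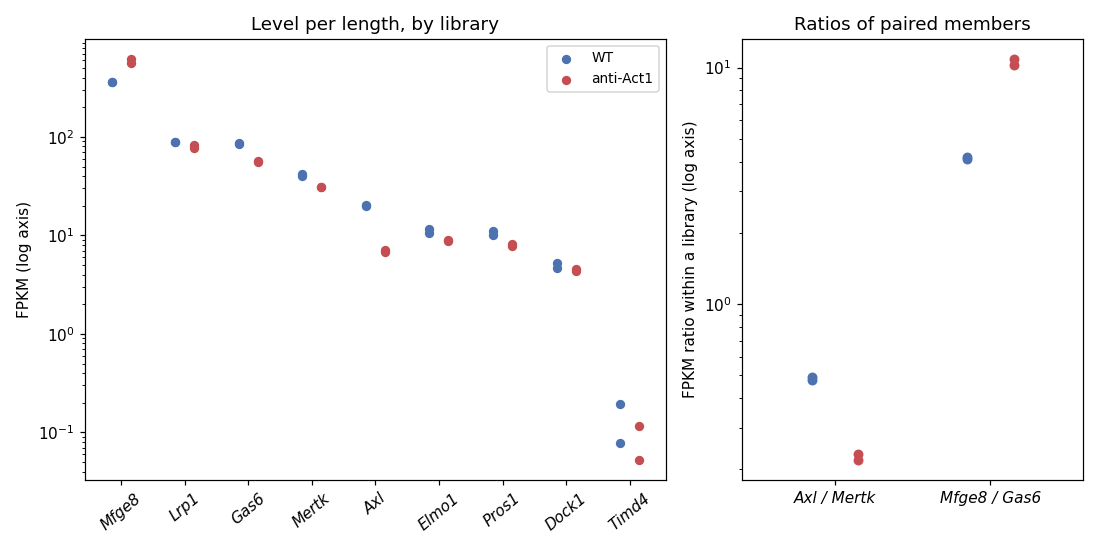
Left, FPKM (log axis) of 9 clearance genes in each library, ordered by the WT mean and without Megf10, which is listed at 0 in anti-Act1. Right, the FPKM ratio of Axl to Mertk and of Mfge8 to Gas6 within each library (log axis), which falls from 0.492 and 0.476 to 0.219 and 0.232 and rises from 4.09 and 4.18 to 10.3 and 10.9 between WT (blue) and anti-Act1 (red).

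The same comparison was made over a list of 86 efferocytosis genes grouped by role, which holds the 10 genes. Of its 80 genes tested, 36 (45.0%) passed, 12 higher and 24 lower, with a median log2 fold change of −0.06. Without the 10 genes, 30 of 71 (42.3%) passed, 11 higher and 19 lower. Over all genes tested the share that passed was 20.7%, with 10.9% higher and 9.76% lower. Of the 36 calls 22 lay among the bridging ligands and recognition receptors, the genes whose products recognise the dying cell. With the 10 clearance genes left out, 17 of 22 tested genes in these roles passed (77.3%), 6 higher and 11 lower. The list was chosen with earlier results of these data known, so these shares are no independent support. Among the bridging ligands 10 of 11 passed, 3 higher and 7 lower, and among the recognition receptors 12 of 18 passed, 4 higher and 8 lower. Itgam stands both in this list and among the macrophage markers.

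Among the bridging ligands the gene that rose most was Edil3, an integrin ligand that binds phosphatidylserine as Mfge8 does. It was at 6.70 and 7.83 CPM in WT and at 14.3 and 14.1 CPM in anti-Act1, and it rose by 0.97 on the log2 scale (SE 0.11, adjusted p = 6.55e-10 in edgeR). Both bridges of this kind were thus higher in anti-Act1. Named after their values were seen, the 3 chains of C1q, the complement opsonin, fell: C1qa by 0.46, C1qb by 0.40 and C1qc by 0.40 on the log2 scale, all at an adjusted p under 0.05 by edgeR. Thrombospondin 1 (Thbs1, chosen in the same way), a bridge to CD36, fell by 0.39.

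Among the recognition receptors the largest fall was that of Axl, given above. Cd300lf, a phosphatidylserine-binding receptor of myeloid cells, rose by 0.63 (220 and 207 CPM in WT, 320 and 339 CPM in anti-Act1, edgeR adjusted p = 1.3e-13). Stab2, a phosphatidylserine receptor of low level that was chosen after its values were seen, fell by 1.15 (8.70 and 9.68 CPM against 4.10 and 4.21 CPM, edgeR adjusted p = 1.43e-09). Calls thus went both ways among the receptors.

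Among all genes tested, 10.9% were higher and 9.76% lower in edgeR. Of the receptors for find-me signals, which draw phagocytes to dying cells, 2 of 6 rose and 2 fell in edgeR. The counts were 1 and 1 without anti-Act1 replicate 1 or 2 and in DESeq2, 2 and 1 without WT replicate 1 and 1 and 2 without WT replicate 2. P2ry2, a nucleotide receptor, rose by 0.41 and P2ry6, another of that family, fell by 0.29. In engulfment signalling 3 of 14 (21.4%) passed, a share close to the 20.7% over all genes. Elmo1, Dock2 and Rac1 fell and 0 genes rose. At an unadjusted p under 0.05 the count was 5 lower and 0 higher, and DESeq2 and limma on log2(FPKM + 1) each called 3 lower and 0 higher.

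Genes that act after uptake, in phagosome maturation, moved little. None of the 16 tested passed in edgeR, 0 were under an unadjusted p of 0.05 and DESeq2 and limma called 0, with log2 fold changes from −0.09 to 0.11. In lipid sensing and efflux 1 of 8 rose and 3 fell, against 10.9% and 9.76% of all genes tested. Without anti-Act1 replicate 1 the number that fell was 1, and without anti-Act1 replicate 2 the number that rose was 0. Pparg, a nuclear receptor activated by engulfed lipids, fell by 0.81 (20.3 and 21.7 CPM in WT, 11.9 and 12.1 CPM in anti-Act1, edgeR adjusted p = 2.16e-10). Ppard, its relative, rose by 0.22, and this call was lost in 5 of the 14 alternatives, among them without WT replicate 2 (edgeR adjusted p = 0.105) and without anti-Act1 replicate 2 (adjusted p = 0.206).

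Adam17 and Adam10 are proteases that cut TAM receptors from the cell surface. Adam17 was at 338 and 339 CPM in WT and at 391 and 400 CPM in anti-Act1. It rose by 0.22 (SE 0.05, edgeR adjusted p = 0.00065). Adam10 was at 244 and 261 CPM against 234 and 232 CPM and did not pass (log2 fold change −0.12, adjusted p = 0.111 by edgeR), except without WT replicate 1 (−0.16, edgeR adjusted p = 0.0302). Transcript levels give no measure of shed receptor. Of the don't-eat-me genes, whose products restrain uptake, 1 of 5 rose and 1 fell, against 10.9% and 9.76% of all genes tested. Cd47 rose by 0.18 and its receptor Sirpa fell by 0.16, calls that were lost in 3 and 5 of the 14 alternatives. For Cd47 these included leaving out anti-Act1 replicate 1 (edgeR adjusted p = 0.0737) or 2 (0.0556). For Sirpa they included leaving out WT replicate 2 (edgeR adjusted p = 0.0627), anti-Act1 replicate 1 (0.0628) or anti-Act1 replicate 2 (0.132), and the replicate block (0.0638).

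**Figure D4:**
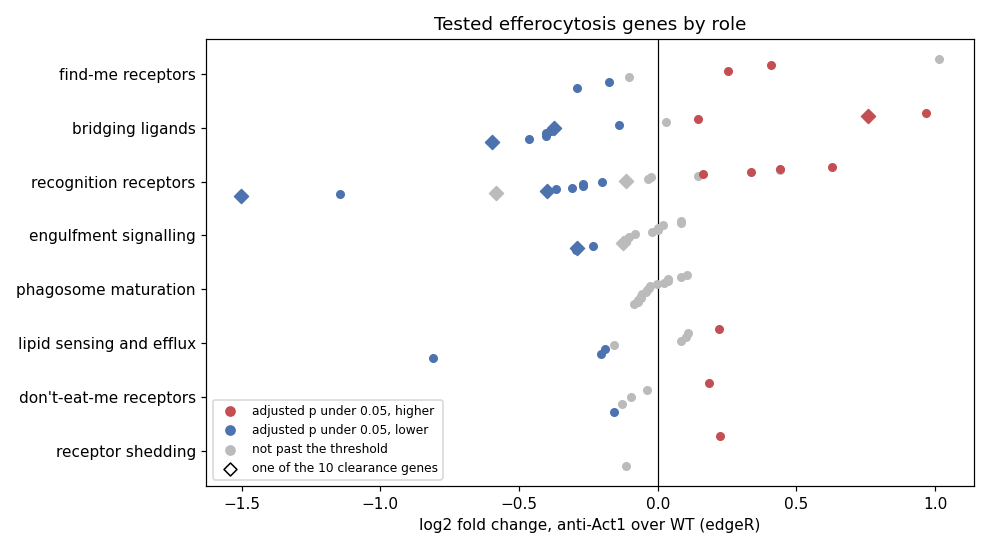
Log2 fold change of anti-Act1 over WT (horizontal axis) for the 80 efferocytosis genes tested, by role. Diamonds are clearance genes described one by one, red and blue mark genes past an adjusted p of 0.05 in edgeR (higher, lower) and grey those that are not. Bridging ligands and recognition receptors spread from −1.50 to 0.97, while the 16 phagosome maturation genes lie between −0.09 and 0.11.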

How the data were processed

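RNA from 4 macrophage cultures (2 WT, 2 anti-Act1) was sequenced as paired-end reads. The authors cleaned the reads and aligned them, and deposited a table of read counts per gene and a table of FPKM, which the values show to be counts per gene length and column total. The submitters' processing notes name Bowtie 0.12.2, HTSeq 0.6.1 and the builds mm8 and mm10 with no role. The labels give 48 h of coculture, while the study's text gives a shorter time for these libraries. The replicates are described as biological. The 2 libraries of WT and the 2 of anti-Act1 differed by more than sampling noise (chi-square over degrees of freedom 10.8 and 7.45). This cannot show whether they came from separate mice or cultures. Each library was kept as a replicate, as described.

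Counts were tested in R 4.3.3 with edgeR 4.0.16 (TMM, filterByExpr, quasi-likelihood F test, two-sided, Benjamini-Hochberg adjustment over 12494 genes). CPM use TMM library sizes. SE is the log2 fold change divided by the root of F, and 95% intervals use the t distribution of the fit. The 10 genes and the lists were chosen with earlier results of these data known. The text names all 10 clearance genes, in each role the gene with the largest change in each direction among those past the threshold, the targeted gene Traf3ip2, and set partners (Tyro3, Havcr1, Elmo2, Dock2, Dock5, Adam10, Adam17, Itgav, Itgb3, Itgb5, Rac1, Crk and Gulp1). Apart from cell type markers, any other efferocytosis gene named with a value is said to be chosen after its values were seen. Alternatives were DESeq2 1.42.0, DESeq2 size factors, library totals, other filters, a replicate block, limma 3.58.1 on log2(FPKM + 1 or 0.1), leaving out each library and, added after the data were seen, counts thinned to the smallest total. The edgeR script was tested on simulated data. Exon overlaps come from GENCODE M21. Sequences come from RefSeq, build GRCm38.p6.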

Additional observations from a re-analysis of the deposited data

How the results depend on the processing

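Axl, Mertk, Gas6, Pros1 and Mfge8 kept their direction and their call in all 14 alternatives, with log2 fold changes of −1.55 to −1.40, −0.43 to −0.37, −0.62 to −0.57, −0.42 to −0.32 and 0.69 to 0.83. Elmo1 lost its call only in limma on log2(FPKM + 1) without a filter (−0.29, adjusted p = 0.0691), and Lrp1 gained one only with library totals (−0.14, edgeR adjusted p = 0.0430). Dock1 was called in 0 of the 14 and Timd4 in 0 of the 10 that gave it a fold change. Among these DESeq2 gave Timd4 no adjusted p. Genes of the 10 called lower numbered 4 to 6, and 1 was called higher in all 14. Of the 86 efferocytosis genes 18 to 26 were called lower. In limma without a filter 6 were called higher and in limma with a filter 8, against 12 in edgeR. The cause was not tested. The smallest changes of Stab2 (−0.51) and Edil3 (0.62) were those in limma on log2(FPKM + 1). Both kept their calls there without a filter (limma adjusted p = 0.0132 and 0.0197). In that limma fit 582 of all genes were higher and 509 lower. DESeq2 called 1078 higher and 908 lower.

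Leaving out 1 library at a time moved Timd4 from −1.28 to 0.18, the latter without WT replicate 1, and Tyro3 from −1.78 (without anti-Act1 replicate 2) to 1.55, with −0.24 without WT replicate 2. In these fits the lone library was taken to vary like the other group. Over all genes, leaving out anti-Act1 replicate 1 or 2 left 970 or 930 genes higher and 742 or 741 lower. Crk, at 0.00, turned to −0.0239 with library totals and in limma on log2(FPKM + 1) with and without a filter, to −0.0244 in limma on log2(FPKM + 0.1) and to −0.0010 with thinned counts, and ran from −0.0232 to 0.0293 with 1 library left out. The order of the 10 genes by FPKM was the same with TMM library sizes. These scale all genes of a library alike and could not change the order within it.

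The deviations of libraries with the same replicate number had a correlation of −0.03 over 12494 genes. This single value cannot show whether same-numbered libraries shared a culture or batch, which the labels do not state. With the numbers as a replicate block, 1293 genes were higher and 1113 lower, and of the 10 clearance genes 1 was higher and 5 were lower, with Axl at −1.50. The block ended the call of Sirpa (adjusted p = 0.0638 by edgeR). Both WT libraries were deeper. Depth limits Timd4, Megf10 and Tyro3, which had at most 17 counts in any library.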
